A study of Arabidopsis thaliana with 12 samples.

Results

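The transcripts described here come from the mitochondrial genome of Arabidopsis thaliana. They were taken as every probe set (the group of short probes that reads 1 transcript on the array) whose symbol in the platform annotation starts with nad, cox, ccb, matR or orfX. The rule gave 26 of the 22746 probe sets tested, for 17 genes. Of these, 23 carried a single gene name and 3 were shared with a nuclear locus: cox3 with AT2G07687, and 2 nad1 probe sets with AT2G07701 and AT2G07702. The gene nad1 had 9 probe sets, nad5 had 2 and every other gene had 1.

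The 12 samples were green tissue of 3-week-old seedlings in the Col-0 ecotype, hybridised to Affymetrix ATH1 arrays, with 4 groups of 3 biological replicates. The plants grew on soil with 10 h of light and 14 h of dark. The first pair of groups was an RNA interference (RNAi) line against CHLD and Col-0 control plants, both given 20 µg/ml dexamethasone. The second pair was a CHLM overexpression line and Col-0 control plants, both given 20 µM β-estradiol. CHLD encodes a subunit of magnesium chelatase and CHLM a methyltransferase, and both enzymes act in chlorophyll synthesis in the plastid. Each steroid switches on the transgene of its line, and each control received the steroid of the line it is set against. Neither the promoter that drives each transgene nor the number of transformants behind each line is stated in the labels.

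The mitochondrial genome of plants encodes a small part of the respiratory chain, some factors that assemble it, and part of its own gene expression machinery. Most respiratory subunits are nuclear-encoded and imported. Several of the genes below carry introns that need a mitochondrial maturase and nuclear splicing factors, and nad1, nad2 and nad5 are pieced together from separately transcribed parts by trans-splicing. A nuclear insertion on chromosome 2 of Arabidopsis copies much of the mitochondrial genome, so a probe set can read both, and 8 of the 26 carry the suffix that marks probes matching more than 1 transcript. The array labelling reads RNA through a 3′ method that favours polyadenylated RNA, and in mitochondria a poly(A) tail usually marks RNA for decay. In whole tissue, a changed number of cells or mitochondria, a changed amount of RNA per mitochondrion and a changed tail cannot be told apart.

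The CHLM probe set lay between 13.96 and 14.48 (log2 signal) in the 3 arrays of the CHLM overexpression line and between 11.55 and 11.86 in the other 9 arrays. No probe set was named CHLD in the annotation used here, so that label was not checked. Of 8 green tissue markers 6 had a named probe set, among them LHCB4.2, a light-harvesting protein of photosystem II, at 13.58 to 13.96, and none passed the test in either line. Array medians lay between 6.26 and 6.31, and arrays correlated with each other at 0.983 to 0.997. Replicate 1 of Col-0 given estradiol stood apart from the other arrays of its group, with correlations of 0.99 against 0.997 between the other two, so results that rest on it are also given without it.

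The mitochondrial probe sets were mostly dim. Their means over the 12 arrays ran from 3.18 to 7.53 on the log2 scale, and 23 of the 26 lay below every array's median. Bacterial trpnX control probe sets read 2.79 to 3.35. The nad1 probe set 257323_at was the only member whose mean lay at or below the upper end of that range. Single values of other members also lay within it. In Col-0 given estradiol, nad6 read 3.33 in replicate 1 and nad5 257337_at 3.33 in replicate 2. Differences between probe sets also reflect their probes, so levels are not compared between genes below, and "brightest" only says which probe set of a gene was picked.

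In the CHLD RNAi line 6 of the 26 probe sets were higher than in Col-0 given dexamethasone, and none was lower, at an adjusted p under 0.05 (limma, Benjamini-Hochberg over all probe sets). Over all probe sets tested, 12.4% were called, 6.07% higher and 6.34% lower. In the CHLM overexpression line 4 of the 26 were higher than in Col-0 given estradiol and none was lower, against 9.75% of all probe sets called, 5.44% higher and 4.3% lower. The genes called were ccb452, nad4L and nad1 in the RNAi line, and ccb452, nad4L, nad6 and orfX in the overexpression line. Of these, ccb452, nad6 and orfX carry a single gene name but have the suffix for probes that also match other transcripts. Without replicate 2 of Col-0 given dexamethasone 2 of the 26 were called in the RNAi line, and 1563 of all 22746 probe sets in place of 2822. Without RNAi replicate 2, 3 of the 26 were called there, and 1801 of all probe sets. Without replicate 2 of Col-0 given estradiol 2 of the 26 were called in the overexpression line, and 1583 of all probe sets in place of 2217. The median log2 difference of the 26 was 0.20 in the RNAi line and 0.19 in the overexpression line, beside medians of -0.01 and 0.02 over all probe sets. Without replicate 2 of Col-0 given estradiol the overexpression median was 0.12. Of all 26 differences 21 were positive in each line, called ones included, and 19 were positive in both, while over all probe sets 48.8% were positive in the RNAi line and 54.3% in the overexpression line. Among members that did not pass the test, 15 of 20 were positive in the RNAi line and 17 of 22 in the overexpression line. Of the 26 probe sets 9 read the single gene nad1.

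Groups that did not overlap were counted as well. In 9 of the 26 probe sets all RNAi arrays lay above all their Col-0 arrays, and in none did they all lie below, while over all probe sets 15.9% did not overlap in the higher and 15.8% in the lower direction. In the overexpression line the corresponding counts were 10 and 0, against 15.1% and 11.3%. With only the brightest probe set of each of the 16 genes that had a probe set of its own, 3 were called higher in the RNAi line and 4 in the overexpression line, with medians of 0.23 and 0.27. The first of these medians was 0.14 without RNAi replicate 2, and the second was 0.13 without replicate 2 of Col-0 given estradiol.

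**Figure D1:**
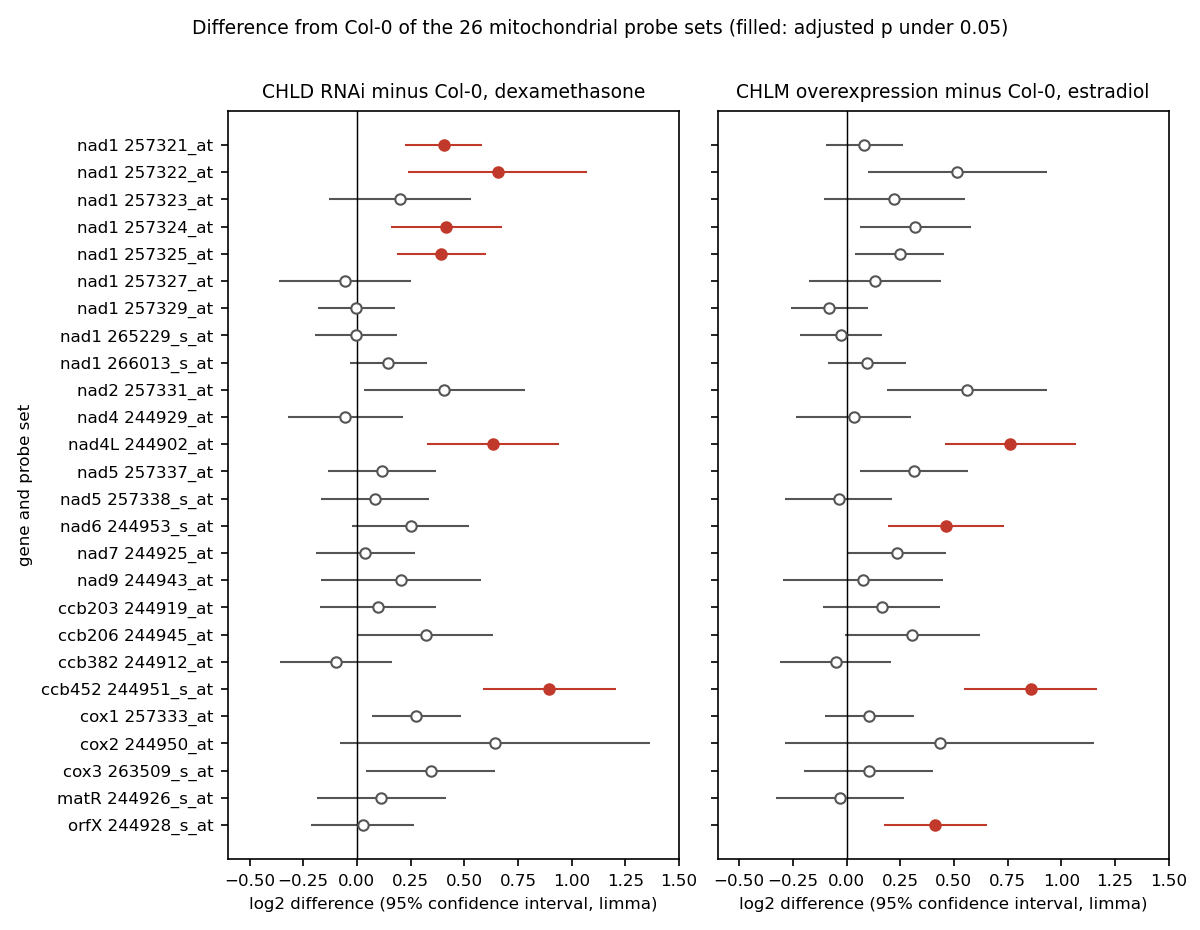
Log2 difference between each line and its own Col-0 control for the 26 mitochondrial probe sets, with 95% confidence intervals from limma; filled points passed an adjusted p of 0.05. Most points lie to the right of 0 in both lines, and ccb452 and nad4L are filled in both.

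The 4 probe sets named ccb belong to genes for cytochrome c maturation, the pathway that attaches heme to cytochrome c. RefSeq names ccb452 ccmFC, ccb382 ccmFN1, ccb203 ccmFN2 and ccb206 ccmB. The ccmF proteins form the heme ligation module and ccmB is part of a membrane transporter.

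The probe set for ccb452 showed the highest difference of the 26 in both lines. It has the suffix for probes that also match other transcripts, and whether it read the nuclear copy too was not tested. It read 5.88, 5.62 and 5.59 in the 3 arrays of Col-0 given dexamethasone and 6.63, 6.74 and 6.41 in the RNAi line. In Col-0 given estradiol it read 5.85, 5.61 and 5.95, and in the CHLM line 6.95, 6.38 and 6.65. Every array of either line was above every control array. The log2 difference was 0.90 in the RNAi line (SE 0.144, limma adjusted p = 0.00121, 1.86-fold) and 0.86 in the overexpression line (SE 0.144, adjusted p = 0.00368, 1.81-fold). Leaving out any single array kept both calls.

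No other ccb gene passed the test. ccb382, with levels of 7.56, 7.71 and 7.85 in Col-0 given dexamethasone and 7.57, 7.74 and 7.52 in the RNAi line, had the lowest difference of the 26 there, -0.10. Its levels were 7.28, 7.56 and 7.45 in Col-0 given estradiol and 7.17, 7.60 and 7.37 in the CHLM line, and the groups overlapped in both pairs. ccb206 had differences of 0.32 and 0.31 in the RNAi and the overexpression line, and ccb203 of 0.10 and 0.16. Among the ccmF genes in the RNAi line, the 95% interval of the difference was 0.59 to 1.21 for ccb452, -0.17 to 0.37 for ccb203 and -0.36 to 0.16 for ccb382. The first of these is the highest and the last the lowest of the 26 differences, and no test between probe sets was run.

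Complex I, the NADH dehydrogenase that feeds electrons into the respiratory chain, accounts for 17 of the probe sets and 8 genes. Of the 17, 5 were higher in the RNAi line and 2 in the overexpression line. Outside nad1, nad4L was called in the RNAi line, and nad4L and nad6 in the overexpression line, among 8 probe sets of 7 genes.

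nad4L encodes a small membrane subunit of complex I. It read 5.09, 4.88 and 5.05 in Col-0 given dexamethasone and 5.78, 5.71 and 5.43 in the RNAi line. In Col-0 given estradiol it read 5.05, 4.54 and 4.47, and in the CHLM line 5.54, 5.32 and 5.49. Neither line overlapped its control. The differences were 0.63 in the RNAi line (SE 0.142, limma adjusted p = 0.0103, 1.55-fold) and 0.76 in the overexpression line (SE 0.142, adjusted p = 0.00615, 1.70-fold). The first call was lost without replicate 2 of Col-0 given dexamethasone (adjusted p = 0.0529). Without the estradiol control array that stood apart, the second difference was 0.94 (adjusted p = 0.000348).

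nad6, another membrane subunit, was dim. Its probe set has the same suffix as that of ccb452, with the same limit. Its levels were 3.33, 3.57 and 3.57 in Col-0 given estradiol and 4.0, 3.74 and 4.12 in the CHLM line, and the groups did not overlap. The control value of 3.33 lay within the range of the trpnX control probe sets. The difference was 0.46 (SE 0.127, limma adjusted p = 0.0349). That call was lost in 5 of the 12 analyses that left out 1 array: without any of the 3 estradiol control arrays, and without CHLM replicate 1 or 3 (adjusted p 0.0532 to 0.111). All 5 left out an array of the estradiol pair. Leaving out an array of the other pair changes only the shared spread, not the difference. The nad6 call was also lost with only the estradiol groups in the fit (adjusted p = 0.0754). In the dexamethasone pair nad6 read 3.36, 3.55 and 3.61 in Col-0 and 3.61, 3.99 and 3.67 in the RNAi line, a difference of 0.25 (adjusted p = 0.232).

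**Figure D2:**
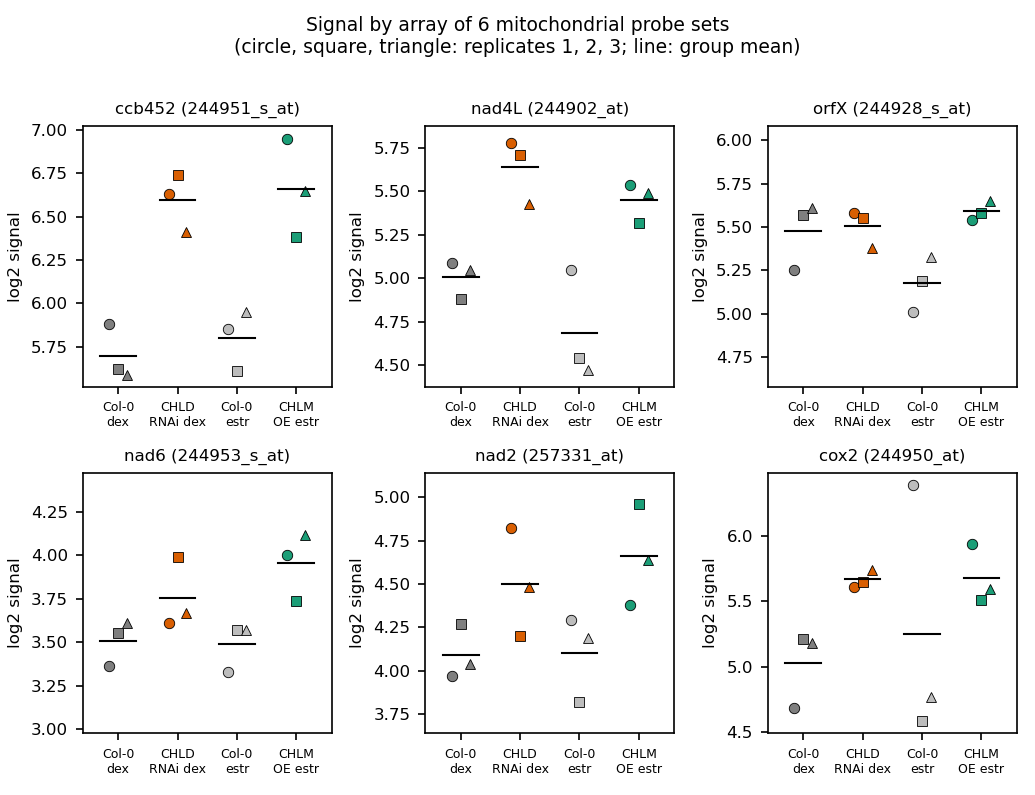
Log2 signal of ccb452, nad4L, orfX, nad6, nad2 and cox2 in each of the 12 arrays, by group; each point is 1 array. For ccb452 and nad4L every array of either line lies above every array of its own control, while cox2 has 1 high estradiol control array at 6.39.

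nad2, a membrane subunit whose messenger is assembled by trans-splicing, did not pass the test in either line. It falls outside the rule by which values per array were printed and is given because its estradiol call depended on the setting. It read 4.29, 3.82 and 4.19 in Col-0 given estradiol and 4.38, 4.96 and 4.64 in the CHLM line. The groups did not overlap, and the difference was 0.56 (SE 0.174, limma adjusted p = 0.0579). It passed with each array centred on its median (adjusted p = 0.0457) and without the estradiol control array that stood apart (0.66, adjusted p = 0.0482). It also passed without RNAi replicate 1 or 2 or CHLM replicate 1 (adjusted p 0.045 to 0.0484). In the dexamethasone pair the difference was 0.41 (adjusted p = 0.153).

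The brighter nad5 probe set, 257338_s_at, read 4.78, 4.48 and 4.36 in Col-0 given dexamethasone and 4.74, 4.51 and 4.62 in the RNAi line. It read 4.63, 4.41 and 4.48 in Col-0 given estradiol and 4.61, 4.35 and 4.45 in the CHLM line. Both pairs of groups overlapped, with differences of 0.08 and -0.04. The other nad5 probe set, 257337_at, had differences of 0.12 and 0.31, neither past the test. nad4, nad7 and nad9, further subunits of the same complex, had differences of -0.05, 0.04 and 0.21 in the RNAi line and 0.03, 0.23 and 0.08 in the overexpression line, and none of these passed.

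nad1 encodes a membrane subunit close to the ubiquinone site, and its 9 probe sets did not move alike. In the RNAi line 4 of the 9 were higher and the other 5 had differences of -0.06 to 0.20. In the overexpression line none of the 9 passed the test, with differences of -0.08 to 0.52. There 3 of the 9 were at an unadjusted p under 0.05, beside 5730 of all 22746 probe sets. Which exon, intron or strand each probe set reads was not analysed here.

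The brightest nad1 probe set, 257322_at, read 5.41, 4.94 and 5.15 in Col-0 given dexamethasone and 5.75, 5.89 and 5.83 in the RNAi line. The groups did not overlap, and the difference of 0.66 was the highest among the nad1 probe sets (SE 0.194, limma adjusted p = 0.0403). In Col-0 given estradiol it read 5.33, 5.42 and 5.65 and in the CHLM line 6.53, 5.89 and 5.53, where the lowest CHLM array fell below the highest control array. There the difference was 0.52 (adjusted p = 0.11), and without CHLM replicate 3 it was 0.74 (adjusted p = 0.0246).

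257321_at read 4.53, 4.40 and 4.36 in Col-0 given dexamethasone and 4.83, 4.86 and 4.81 in the RNAi line. Its difference of 0.40 (SE 0.0828, limma adjusted p = 0.00607) kept its call without any single array, the only one of the nad1 calls that did. In the estradiol pair it read 4.50, 4.48 and 4.64 in Col-0 and 4.57, 4.63 and 4.67 in the CHLM line. These groups overlapped, with a difference of 0.08.

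257325_at read 4.95, 4.94 and 4.97 in Col-0 given dexamethasone and 5.25, 5.40 and 5.39 in the RNAi line, a difference of 0.39 (SE 0.0971, limma adjusted p = 0.0171). It read 4.92, 5.06 and 5.17 in Col-0 given estradiol and 5.47, 5.23 and 5.19 in the CHLM line, a difference of 0.25 that did not pass. In both pairs every line array was above every control array.

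257324_at read 5.39, 5.42 and 5.13 in Col-0 given dexamethasone and 5.82, 5.75 and 5.62 in the RNAi line, a difference of 0.42 (SE 0.121, limma adjusted p = 0.0367). It read 5.34, 5.44 and 5.37 in Col-0 given estradiol and 5.99, 5.56 and 5.56 in the CHLM line, a difference of 0.32 (adjusted p = 0.111). Neither pair of groups overlapped. Of the 12 analyses that left out 1 array, 5 ended the RNAi call of 257324_at (adjusted p 0.059 to 0.146), 4 that of 257325_at (0.0539 to 0.064) and 7 that of 257322_at (0.0502 to 0.16). The arrays concerned were the 3 of Col-0 given dexamethasone and RNAi replicates 1 and 2 for 257324_at, and control replicates 1 and 2 and RNAi replicates 2 and 3 for 257325_at. For 257322_at they were control replicates 2 and 3, all 3 RNAi arrays, and replicate 2 of each estradiol group, which enter through the shared spread.

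At the other end, 257329_at had the lowest difference of the 26 in the overexpression line, -0.08. It read 3.56, 3.75 and 3.75 in Col-0 given estradiol and 3.58, 3.63 and 3.61 in the CHLM line. In the dexamethasone pair it read 3.63, 3.57 and 3.71 in Col-0 and 3.58, 3.69 and 3.63 in the RNAi line, and both pairs overlapped. The 2 nad1 probe sets shared with AT2G07701 and AT2G07702 had differences of 0.00 and 0.15 in the RNAi line and -0.03 and 0.10 in the overexpression line.

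**Figure D3:**
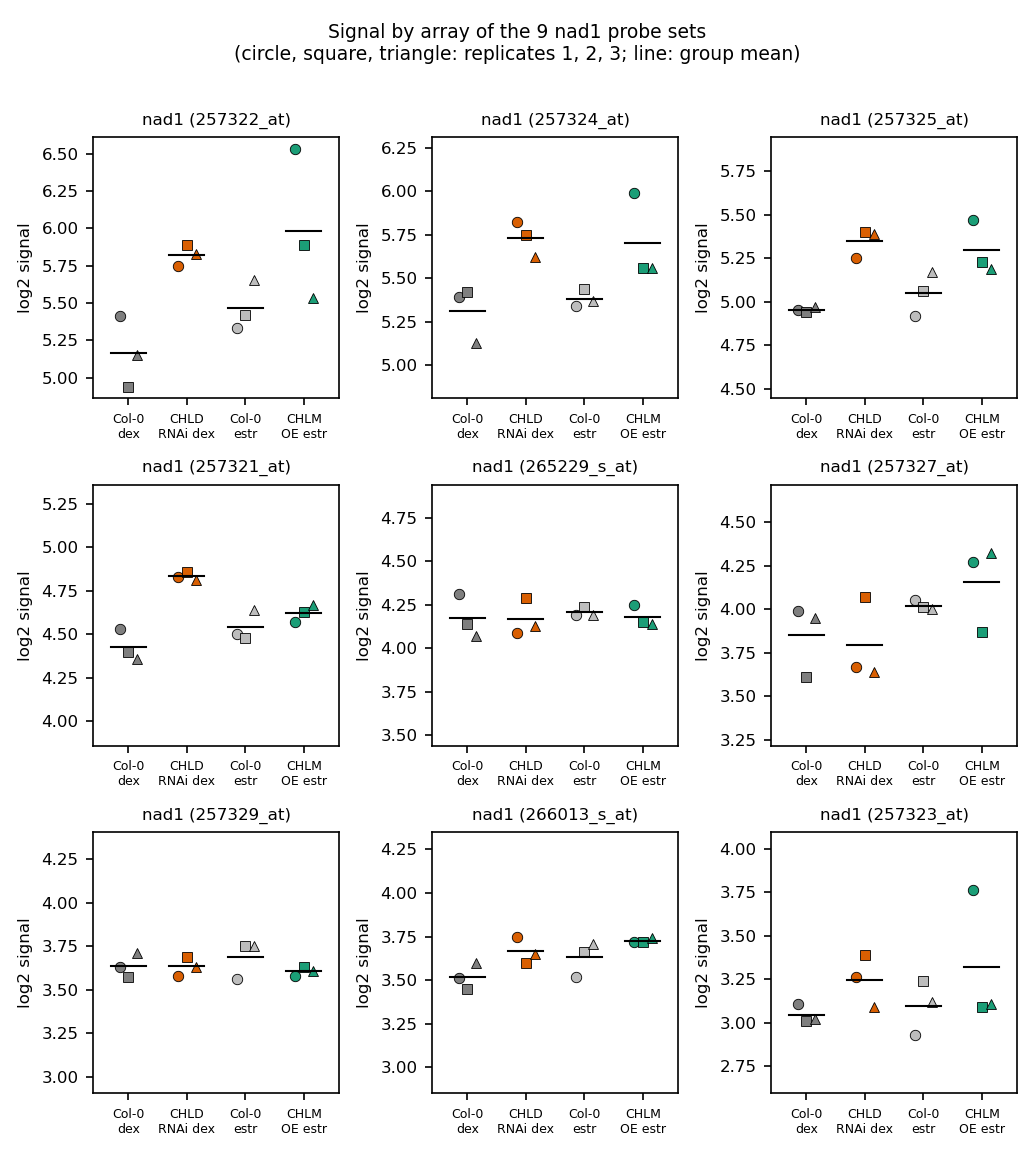
Log2 signal of the 9 nad1 probe sets in each of the 12 arrays, by group; each point is 1 array. The probe sets 257321_at, 257322_at, 257324_at and 257325_at were called higher in the CHLD RNAi line, and the other 5 overlap with their controls in that pair.

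Cytochrome c oxidase, the last complex of the chain, was represented by cox1, cox2 and cox3. None of the 3 passed the test in either line. In the RNAi line all 3 had groups that did not overlap, with differences of 0.28 for cox1, 0.64 for cox2 and 0.34 for the shared cox3 probe set (limma adjusted p = 0.0765, 0.248 and 0.131). Over all probe sets 15.9% did not overlap in the higher direction in that line. In the overexpression line the differences were 0.11, 0.43 and 0.10, and all 3 pairs of groups overlapped.

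cox2, which falls outside the rule by which values per array were printed, is given because 1 array set its spread. It read 4.68, 5.21 and 5.18 in Col-0 given dexamethasone and 5.61, 5.65 and 5.74 in the RNAi line. In Col-0 given estradiol it read 6.39, 4.58 and 4.77, and in the CHLM line 5.94, 5.51 and 5.59. The array at 6.39 was the one that stood apart, and the standard deviation of cox2 in that group, 0.99, was the highest of any of the 26 probe sets in any group. Without that array the cox2 difference was 0.64 in the RNAi line (SE 0.141, limma adjusted p = 0.00612) and 1.0 in the overexpression line (SE 0.157, adjusted p = 0.00182), so cox2 then passed in both. With only the dexamethasone groups in the fit, cox2 (adjusted p = 0.00877) and cox3 (0.0375) passed in the RNAi line. cox1 passed in that line when only probe sets brighter than the median of all were tested.

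orfX, which RefSeq names mttB, encodes a membrane protein related to a subunit of the twin-arginine translocase. Its probe set has the same suffix as that of ccb452, with the same limit. It read 5.01, 5.19 and 5.33 in Col-0 given estradiol and 5.54, 5.58 and 5.65 in the CHLM line, with no overlap. The difference was 0.41 (SE 0.112, limma adjusted p = 0.0339). The call was lost without Col-0 replicate 1 or 2 or any of the 3 CHLM arrays (adjusted p 0.0675 to 0.114), and with only the estradiol groups in the fit (0.0675). Without the control array that stood apart the difference was 0.33. In the dexamethasone pair orfX read 5.25, 5.57 and 5.61 in Col-0 and 5.58, 5.55 and 5.38 in the RNAi line, which overlapped, with a difference of 0.03. matR encodes the maturase that acts in intron splicing, and its differences were 0.11 in the RNAi line and -0.03 in the overexpression line, neither past the test.

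The difference between the effects of the 2 lines was tested directly. None of the 26 passed (limma, adjusted p under 0.05), against 1.13% of all probe sets. Beside 2160 of all 22746 probe sets, 2 of the 26 were at an unadjusted p under 0.05. These were nad1 257321_at, with a CHLM effect lower than the CHLD effect by a log2 difference of -0.32 (SE 0.117, adjusted p = 0.332), and orfX, at 0.39 (SE 0.159, adjusted p = 0.425). So neither the nad1 calls of the RNAi line nor the nad6 and orfX calls of the overexpression line were shown to be particular to that line. For ccb452 the difference between effects was -0.04 with a 95% interval of -0.48 to 0.40, and for nad4L it was 0.13 with an interval of -0.30 to 0.56.

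The Col-0 groups that received different steroids were compared with each other as well. None of the 26 was called (limma, adjusted p under 0.05), against 0.0484% of all probe sets. At an unadjusted p under 0.05 there were 3, nad4L, orfX and ccb382, beside 2407 of all 22746 probe sets. Differences of dexamethasone minus estradiol ran from -0.30 for nad1 257322_at to 0.32 for nad4L, with a median of -0.08. The groups did not overlap in 2 of the 26, nad5 257337_at and nad1 257327_at, against 14.9% of all probe sets. Without the control array that stood apart, nad4L passed this comparison at 0.50 (adjusted p = 0.0336). Without it 728 of all probe sets passed in place of 11.

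The 26 probe sets were also compared within each array, as the deviation of each from its own mean over the 12 arrays. The median deviation was below 0 in all 6 Col-0 arrays, from -0.15 to -0.06, and above 0 in all 6 arrays of the lines, from 0.03 to 0.22. The levels within a line were not even. CHLD replicate 2 held the highest value of its group in 16 of the 26 and CHLM replicate 1 in 15, while CHLM replicate 2 was the lowest of its group in 17. The difference between the 3′ and 5′ actin probe sets, a measure of RNA integrity, was 1.29 to 1.45 in Col-0 given dexamethasone, 1.24 to 1.75 in the RNAi line, 1.41 to 1.65 in Col-0 given estradiol and 1.32 to 1.88 in the CHLM line. The lowest actin value belonged to CHLD replicate 2 and the highest to CHLM replicate 1. Between the 3′ and 5′ GAPDH probe sets the difference was -0.13 to 0.03 in Col-0 given dexamethasone and 0.02 to 0.16 in the RNAi line. For the estradiol pair it was -0.12 to 0 in Col-0 and -0.13 to 0.09 in the CHLM line. The part of RNA integrity in the differences was not tested.

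**Figure D4:**
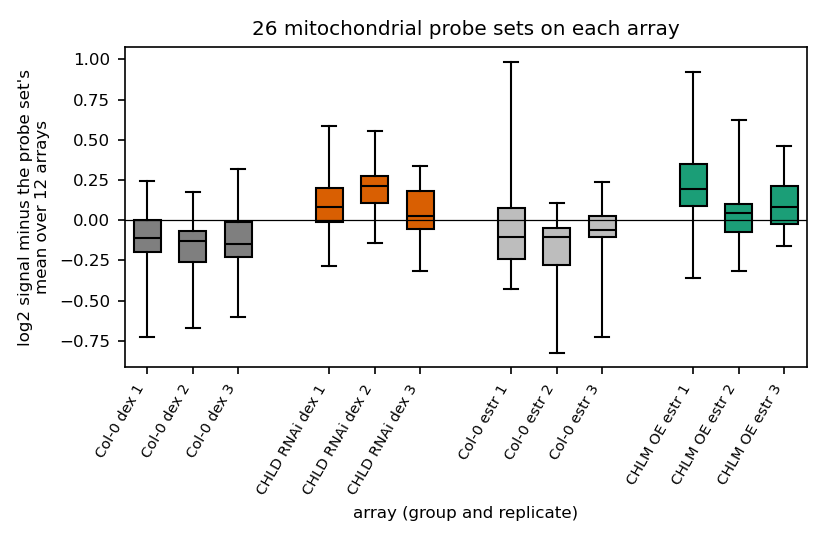
Deviation of the 26 mitochondrial probe sets from their own means over the 12 arrays, 1 box per array; boxes show the quartiles and the median, and whiskers the lowest and highest probe set. The median of every Col-0 array is below 0 and that of every line array is above 0.

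Further mitochondrial genes outside the naming rule had 9 probe sets, each shared with another gene. In each line 1 of the 9 was called higher and none lower, with medians of 0.16 and 0.19. Over all probe sets 6.07% were higher in the RNAi line and 5.44% in the overexpression line. The 1 called was in both cases the probe set for atp9, the ring subunit of the ATP synthase, which is shared with AT2G07671. It read 8.04, 8.20 and 7.93 in Col-0 given dexamethasone and 8.82, 9.05 and 8.63 in the RNAi line, a difference of 0.78 (SE 0.170, limma adjusted p = 0.00884). In the estradiol pair it read 8.32, 8.07 and 8.03 in Col-0 and 9.30, 8.65 and 8.56 in the CHLM line, a difference of 0.70 (SE 0.170, adjusted p = 0.0212). Neither pair overlapped, and the second call was lost without Col-0 replicate 2 or 3 or CHLM replicate 1 (adjusted p 0.0591 to 0.0645).

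Among protein-coding genes of the RefSeq mitochondrial record, ccmFC (ccb452) lies between rpl5 and nad4, and neither neighbour passed the test in either line. The shared probe set for rpl5, a ribosomal protein, had differences of -0.07 and -0.05 and nad4 of -0.05 and 0.03 in the RNAi and the overexpression line.

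Among plastid-encoded genes, the other organelle genome, 11 of 77 probe sets were higher and 6 lower in the RNAi line, with a median of 0.07. In the overexpression line 14 were higher and 3 lower, with a median of 0.06. Over all probe sets 6.07% were higher and 6.34% lower in the RNAi line, and 5.44% and 4.3% in the overexpression line. Of 14 nuclear genes for mitochondrial transcription and intron splicing, 5 had a named probe set, and none of these passed in either line (limma, and 0 at an unadjusted p under 0.05), with medians of -0.01 and 0.05. Over all 22746 probe sets 5966 in the RNAi line and 5730 in the overexpression line were at an unadjusted p under 0.05. Of 13 genes of alternative respiration 5 had a named probe set. NDB2, an external NAD(P)H dehydrogenase, was lower in the overexpression line, with a difference of -0.37 (adjusted p = 0.0483). The NDB2 call was lost in 9 of the 12 analyses that left out 1 array (0.056 to 0.174).

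Editing factors change C to U in plant organelle transcripts, and many carry symbols that start with MEF, OTP, MORF or SLO. These prefixes gave 10 named probe sets, which are not all editing factors: they include OTP43, which is also in the splicing list, and SLOMO, an F-box gene. In the overexpression line 2 were higher and none lower, against 5.44% of all probe sets higher and 4.3% lower. MEF8S, a mitochondrial editing factor, read 4.87, 4.86 and 4.65 in Col-0 given estradiol and 5.43, 5.29 and 5.32 in the CHLM line, a difference of 0.55 (SE 0.0889, limma adjusted p = 0.00268) that held without any single array. OTP81, which belongs to the same protein family, had a difference of 0.72 (adjusted p = 0.0319), lost without Col-0 replicate 1 or 3 or CHLM replicate 1 or 2 (0.0504 to 0.126). In the RNAi line SLOMO was the only one of the 10 called, at -0.27 (adjusted p = 0.0492), and 10 of the 12 analyses that left out 1 array ended it.

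Markers of other cell types were read beside these results. Of the root list only PYK10 had a named probe set, at 11.39 to 12 in every array. It was lower in the CHLM line, with a difference of -0.44 (limma adjusted p = 0.0301). That call was lost in 5 of the 12 analyses that left out 1 array, each without an array of the estradiol pair. In the RNAi line the PYK10 difference was -0.32 (adjusted p = 0.089). Of the guard cell list only FMA had a named probe set, at -0.38 in the RNAi line (adjusted p = 0.0361). The FMA call was lost in 4 of the 12, each without an array of the dexamethasone pair. No companion cell or meristem marker had a named probe set, and the part of cell type in the mitochondrial differences was not tested.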

How the data were processed

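The deposited values were log2 signal values, 1 per probe set and array, for which the submitters' processing notes name Affymetrix Expression Console as the authors' software. Not given in the sources used here are its version, how probes were summarised and how arrays were normalized; the base of the log was taken as 2 from the range of 2.39 to 14.49. No value column was left unused, and the values were used as deposited. The 63 control probe sets were left out and 22746 tested. The annotation gave 1 gene to 13513 probe sets, several to 503 and none to 8730.

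limma 3.58.1 in R 4.3.3 fitted 1 model over the 4 groups of 3 arrays (lmFit and eBayes, 8 residual and 6.05 prior degrees of freedom). Benjamini-Hochberg adjustment ran over all probe sets, with a threshold of 0.05. The method was also tested on simulated data, with 200 of the 22746 probe sets raised in the RNAi group. At a log2 difference of 0.5 it called 47.5% of these, and 94% at a difference of 1. Of the unchanged probe sets it called 11 and 9. More than 200 probe sets were called in the data, so these rates are only a guide. A member that did not pass was not shown to be unchanged. Groups and replicate numbers came from the titles. With 3 arrays a group, the number of arrays limits the precision.

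The members and lists were chosen with earlier results of these data known. Values per array were printed for the brightest probe set of a gene with several, for every one called in any comparison, and for the highest and lowest difference in a comparison; cox2 and nad2 were added after their values were seen. A list of nuclear respiratory subunits could not be formed, because the reference table used here has no product names. Sequences were not analysed here, and of genome positions only the order of genes in the mitochondrial record was used, without the strand. Alternatives were renormalization, centring, other variance models, the 2 groups alone, a replicate block, brightness and gene-name filters, a size threshold, 1 probe set per gene and leaving out each array.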

Additional observations from a re-analysis of the deposited data

How the results depend on the processing

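The count of the 26 mitochondrial probe sets past the threshold was 6 in the RNAi line and 4 in the overexpression line. With only probe sets brighter than the median of all, it was 1 and 0. That filter leaves 3 of the 26 to test, ccb382, nad4 and cox1, and the 1 called was cox1. The median log2 difference of these 3 was -0.05 in the RNAi line and 0.03 in the overexpression line, against 0.20 and 0.19 over the 26. None of the calls of the main fit was left to test. Requiring a log2 difference of at least 0.5 as well gave 3 and 2. With only the 2 groups compared in the fit, the count was 8 in the RNAi line, where cox2 and cox3 joined, and 2 in the overexpression line, where nad6 and orfX were lost; the cause was not tested. Leaving out 1 array gave 2 to 7 in the RNAi line, 2 to 5 in the overexpression line, 0 to 1 between the Col-0 groups and 0 to 0 for the difference between effects. With the replicate number as a block the counts were 6, 4, 0 and 0. Deviations of same-numbered arrays from their group means correlated at -0.13 to 0.24 over 18 pairs and those of other numbers at -0.24 to 0.22. These ranges overlap, which does not settle whether same-numbered arrays share more than a number. The median log2 difference without 1 array was 0.14 to 0.27 in the RNAi line and 0.12 to 0.28 in the overexpression line. The 17 member results called in any setting had 340 alternative values. Of these, 293 kept direction and were called, or not called, as in the main fit. Another 35 kept direction and lost the call, 12 gained one and 0 reversed. Only 6 of the 17 in the RNAi line and 4 in the overexpression line were called in the main fit. The others count as kept while they stay uncalled. 257324_at of nad1 also lost its RNAi call with an intensity trend in eBayes (limma adjusted p = 0.0512).

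Over all probe sets, 2822 were called in the RNAi line and 3543 with the 2 groups alone, 2217 and 855 in the overexpression line, and 11 between the Col-0 groups, from 0 to 728 without 1 array. Leaving out 1 array gave 1563 to 3626 in the RNAi line and 1156 to 2090 in the overexpression line. Requiring a log2 difference of at least 0.5 gave 1421 and 1045. Centring the arrays on their medians gave 1546 higher and 844 lower in the overexpression line, against 1238 and 979. The fit of the 2 groups alone does not exist for the difference between effects. Of the 26 probe sets 23 had means below every array median, and how brightness bears on the calls was not tested beyond that filter.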
